A study of Mus musculus with 4 samples.

Results

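Isolated sites are places of open chromatin that stand alone in a wide stretch without another one. They were chosen by position only: among the autosomal sites of the deposited table, a site was kept when at least 75 kb separated it from the end of the site before it and from the start of the site after it, with the first and last site of each chromosome left out. Of 82325 sites in all, 80465 were autosomal and 1396 met the rule. Chromatin accessibility of immortalized mouse embryonic fibroblasts (MEFs) on a C57bl6 background had been profiled by ATAC-Seq, which uses Tn5 transposase to place sequencing adapters into DNA that is not wrapped or packed. Lines derived from HAT1+/+ embryos (WT) and from HAT1-/- embryos (KO) were compared, and each genotype had 2 libraries from 2 lines. HAT1 acetylates newly made histone H4. Every line, WT and KO alike, had been immortalized with SV40 T antigen carried on a plasmid, had passed through several splits in culture, and had no further treatment. A genotype is therefore represented by 2 lines, and with so few lines an effect of the genotype at a site and a peculiarity of the lines cannot be told apart.

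Open sites away from promoters are often enhancers, short DNA segments at which transcription factors displace a nucleosome and act on a gene that can lie far off. In fibroblasts many of them carry motifs for AP-1, the Fos and Jun dimers that respond to growth factors, for TEAD, the DNA-binding partners of YAP and TAZ, or for RUNX factors. Wide stretches with few such sites tend to be AT-rich and gene-poor, are often packed as heterochromatin at the nuclear lamina, and hold long genes of neural adhesion and signalling as well as clusters of receptor genes.

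Sequences of 8 isolated sites are printed as examples. The first 4 are the nonpromoter sites among the largest falls in KO other than the one near Mbd2, the next 3 are the intronic sites with the highest values, and the last is the site at which the lines differed most. Each stretch is the plus strand of GRCm38 (mm10) and lies inside the site, and each site is named by the nearest start of a protein-coding gene, which need not be the gene it acts on. Capitals mark matches to AP-1 (TGANTCA), TEAD (GGAATG) or RUNX (TGTGGTT) motifs on either strand. Each stretch was placed around a motif match, AP-1 before the others, so that it holds one was fixed by construction. How often isolated sites hold each motif is given further below.
Fam19a2 site (intron of Fam19a2, chr10:123670786-123670905): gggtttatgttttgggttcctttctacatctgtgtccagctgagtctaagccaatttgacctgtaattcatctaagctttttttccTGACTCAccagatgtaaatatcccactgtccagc
Brinp1 site (intron of Brinp1, chr4:68865255-68865374): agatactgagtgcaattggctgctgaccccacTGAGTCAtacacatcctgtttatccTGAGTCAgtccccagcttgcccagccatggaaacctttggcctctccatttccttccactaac
Prmt6 site (intergenic, chr3:110721444-110721563): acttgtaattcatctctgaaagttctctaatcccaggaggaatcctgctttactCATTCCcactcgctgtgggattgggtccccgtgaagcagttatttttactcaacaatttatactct
Olfr275 site (intergenic, chr4:52797664-52797783): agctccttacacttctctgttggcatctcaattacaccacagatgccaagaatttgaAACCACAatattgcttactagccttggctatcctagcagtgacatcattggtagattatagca
Vwc2l site (intron of Spag16, chr1:70621999-70622118): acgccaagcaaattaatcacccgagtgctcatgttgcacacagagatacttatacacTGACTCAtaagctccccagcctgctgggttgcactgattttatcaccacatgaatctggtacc
Lmo4 site (intron of a long noncoding RNA, chr3:143912559-143912678): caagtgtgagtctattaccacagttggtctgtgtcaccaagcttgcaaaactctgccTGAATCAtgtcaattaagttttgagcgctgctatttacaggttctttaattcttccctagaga
Efcab3 site (intron of Gm11639, chr11:104952481-104952600): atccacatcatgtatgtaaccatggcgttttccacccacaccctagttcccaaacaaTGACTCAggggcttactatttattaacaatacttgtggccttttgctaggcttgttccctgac
Csmd3 site (beside a processed pseudogene, chr15:46937439-46937558): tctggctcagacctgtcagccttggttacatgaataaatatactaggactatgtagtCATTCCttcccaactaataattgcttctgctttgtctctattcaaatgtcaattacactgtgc
In these stretches the intron of Brinp1 holds the AP-1 letters at 2 places within 120 bases, and the Fam19a2, Vwc2l and Efcab3 sites share the form TGACTCA, while Lmo4 has TGAATCA.

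The smaller of the 2 gaps around an isolated site ranged from 75.03 to 1741 kb with a median of 120 kb, and the larger gap had a median of 262 kb. Over all autosomal sites the median of the smaller gap was 5.27 kb. At the threshold, the members just inside were an intergenic site 75 kb from Ap5m1 and an intronic site of Neb, with smaller gaps of 75.03 and 75.05 kb, and the sites just outside were neighbours in Fgf12 with 74.98 kb between them. The most remote sites were one nearest to Gm19965, the promoter of Pcdh17, one nearest to Cdh8 and the site at Olfr1212. Assembly gaps of unknown bases lay in a flanking stretch of 49 members and made up most of one at 4 members. The sites had been called as peaks from these same libraries, so a gap says that no site was listed there, not that the DNA was closed.

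The reads that fell in the listed sites were estimated at 9420000 in WT replicate 1 and 11400000 in WT replicate 2. The KO libraries had fewer, about 7830000 in replicate 1 and 5650000 in replicate 2. Reads outside the sites were not counted, so the full depth of a library is not known here. Values are normalized counts, that is, counts scaled by the authors to a common depth, and 1 read was worth between 0.714 and 1.51 of them. All 11 fibroblast genes examined (among them Col1a1, Thy1, Pdgfra and Twist1) had an open promoter site, with sums between 4661 and 5695 normalized counts per library. Of 12 genes of other cell types 5 had one, with sums between 272 and 317, and genes without one included Ptprc, Itgam, Myod1, Pou5f1, Nanog and Alb. The Hat1 promoter was open in every library (390 and 384 in WT, 438 and 368 in KO), which gives no check of the genotype labels.

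Isolated sites were mostly intergenic and lay far from genes. Of the 1396, 725 (51.9%, 95% Wilson interval 49.3 to 54.5, counting error only) were intergenic, 345 (24.7%) intronic, 297 (21.3%) within 3 kb of a transcript start, here called promoter sites, and 29 (2.08%) exonic. Among the other 79069 autosomal sites 29.3% were intergenic and 35.6% were promoter sites. The median distance to the nearest protein-coding start was 155 kb against 18.2 kb, and 18.5% of isolated sites had no protein-coding start within the surrounding 1 Mb, against 1.82%. Of isolated promoter sites, 182 of 297 (61.3%) were nearest to a protein-coding start, against 76.1%, and 12.8% had a processed pseudogene as the nearest start, against 4.1%. Isolated sites were shorter (median 380 against 442 bp) and poorer in G and C, with a median GC content of 42.7% in the central 300 bases against 48.7%, and 39.4% against 44.4% in the surrounding 100 kb. These are counts over sites, which are not replicates, and no test was made.

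Matches to short motifs were then counted, with and without promoters. AP-1 letters were found in the central 300 bases of 658 isolated sites (47.1%) and of 37.5% of the other autosomal sites, and among nonpromoter sites the shares were 54.1% (interval 51.2 to 57.1) and 45.7% (45.3 to 46.2). Of isolated sites with an AP-1 match, 82.4% held TGACTCA or its complement TGAGTCA, close to the 82% of the other sites, and 31.2% held 2 or more matches, against 19.3%. TEAD letters were found in 28.1% against 24.6% of all windows and RUNX letters in 13% against 10.2%. The reverse held for CTCF (CCA and AG, then GGC, with any 2 bases in each space), the factor that anchors chromatin loops, with 5.09% against 8.25%, and for the GC-rich SP/KLF letters (GGGCGG), with 9.46% against 17.4%. ETS (CCGGAAGT), CRE (TGACGTCA) and NRF1 (GCGCA joined to TGCGC) letters were each in under 1% of isolated windows, NFY (CCAATCA) in 4.8% and NFI (TTGGC and GCCAA with any 5 bases between) in 0 of 1396 (Wilson upper bound 0.274%). With promoters left out, the isolated share stayed on the same side of the other share for each motif but NRF1, which was in 0.143% against 0.231% of all windows and in 0.091% against 0.0373% of nonpromoter windows. No searched motif contains another. GC content and length moved with these shares, and their part in them was not tested.

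**Figure D1:**
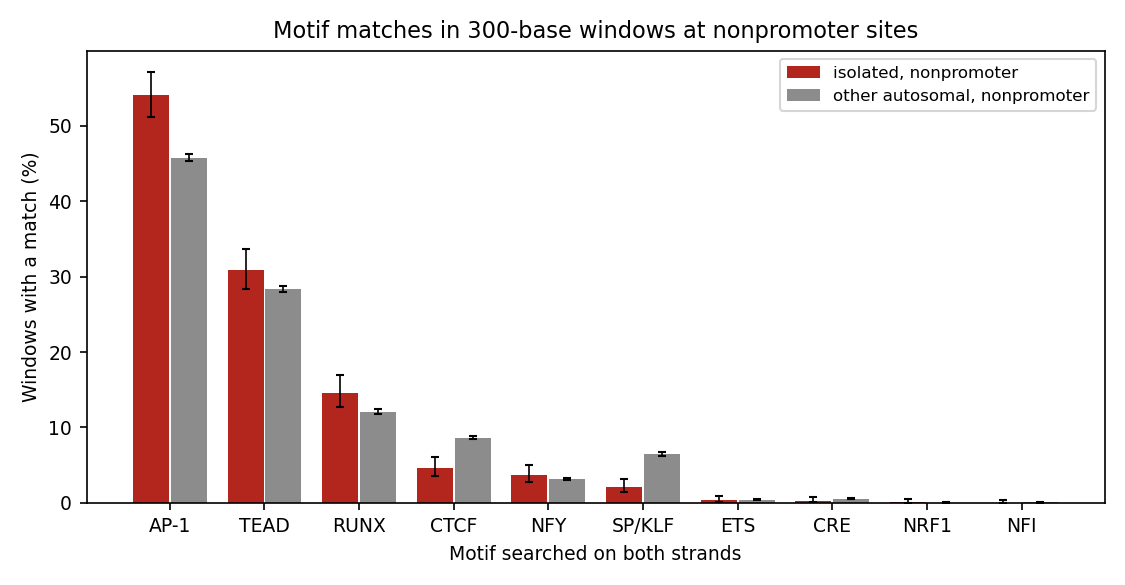
Share of 300-base windows (percent, vertical axis) with at least 1 match to each motif (horizontal axis) in 1099 isolated and 50931 other autosomal nonpromoter sites, with 95% Wilson intervals for counting error. AP-1 stood at 54.1% against 45.7%, while CTCF stood at 4.64% against 8.65%.

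The signal of isolated sites was weak and differed between lines. The median isolated site had 33 normalized counts in WT replicate 1, 25 in WT replicate 2, 15 in KO replicate 1 and 26 in KO replicate 2, whereas the other autosomal sites had a median of 53 in each library. Per kb of site, the medians were 95.5, 75.3, 41.7 and 70.7 in the same order, against 120 to 126 elsewhere. KO replicate 1 thus stood lowest and WT replicate 1 highest, and KO replicate 2 lay beside WT replicate 2. Isolated sites took 0.923% and 0.774% of the summed signal in WT replicates 1 and 2, and 0.589% and 0.804% in KO replicates 1 and 2. In KO replicate 1, 28.9% of isolated sites had a value of 5 or less, against 2.94% in WT replicate 1, 6.66% in WT replicate 2 and 8.31% in KO replicate 2. The median isolated site rested on about 38.8 and 35 reads in WT replicates 1 and 2, but on about 13.9 reads in KO replicate 1 and 17.3 in the other KO line, so the KO values carry more counting error. In libraries made from many cells, fewer cells with an open site and less opening per cell cannot be told apart.

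The isolated sites strongest per kb were open in every line. The promoter of Sp4, which encodes a zinc finger transcription factor, had 724 and 848 normalized counts in WT replicates 1 and 2 and 918 and 1280 in KO replicates 1 and 2. The promoter of Mad2l1, a spindle checkpoint gene, had 477 and 446 in WT and 480 and 620 in KO. Both KO values lay above both WT values at each, with log2 fold changes of 0.47 (SE 0.16, limma unadjusted p = 0.0278) and 0.24 (SE 0.15, limma unadjusted p = 0.156). Per kb, the highest site was intergenic, 462 kb from Myom2, with 308, 192, 156 and 346 in WT replicates 1 and 2 and KO replicates 1 and 2. Its central 300 bases have 8 near-identical copies elsewhere in the genome, so reads there may belong to any of them. The Catspere2 promoter, with 1 other copy, and intergenic sites nearest to Ddx18 and Cdh20 made up the 6 highest per kb. Among intronic sites the highest were the Vwc2l, Lmo4 and Efcab3 sites printed above, of which the last had 132 and 181 in WT and 222 and 304 in KO. LMO4 is a LIM-domain cofactor of transcription, and its intronic neighbour had 204 and 293 in WT and 356 and 328 in KO. An intergenic site near Tfap2c, an AP-2 transcription factor gene, had 254, 251, 325 and 284, and a 1833 bp site near Nectin3, a cell adhesion gene, had 300, 218, 433 and 361 in the same order. The highest exonic sites, nearest to Celf4, Terf1 and Gm5089, reached 127, 114 and 124 in their highest library.

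KO was then compared with WT to ask whether accessibility at isolated sites changed with the loss of HAT1. Each site was fitted with limma on log2(value + 1) over all 82325 sites, and a call needed a log2 fold change of 1 or more in size together with an unadjusted p under 0.01. These thresholds were carried over from the comparison of primary MEFs, as none was found for the immortalized lines. Of the 1396 isolated sites, 35 (2.51%) fell in KO, beside 0.302% of all sites called in that direction, and 0 rose, beside 0.0705% of all sites. At an unadjusted p under 0.05, 137 isolated sites (9.81%, beside 1.59% of all sites) were lower and 13 (0.931%, beside 1.54%) were higher. No isolated site and no other site had an adjusted p under 0.05. The number called depended on each line: it was 2 without WT replicate 1, 2 without WT replicate 2, 20 without KO replicate 1 and 80 without KO replicate 2, where the genotype with a single library was taken to vary like the other. Of the 35 sites, 2, 1, 12 and 20 were called again in these fits, in the same order. With exact permutation, 2 libraries against 2 cannot give a p under 0.333.

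The fold change over all isolated sites lay below 0 as well. Its median was -0.50 (quartiles -1.25 and 0.13), against 0.01 for the other autosomal sites, and 954 (68.3%) lay below 0. Both KO values were under both WT values at 398 isolated sites (28.5%, beside 14.3% of all sites), and over both at 92 (6.59%, beside 14.6%). A log2 fold change of -1 or less was found at 453 (32.4%, beside 4.84%). The KO lines differed in how far they lay from WT: the median against the WT mean was -0.81 in KO replicate 1 and -0.14 in KO replicate 2. The WT lines also differed, with a median of 0.25 for WT replicate 1 minus WT replicate 2. Against the mean of the 4 libraries, the medians were 0.36 in WT replicate 1 and 0.10 in WT replicate 2. On that scale they were -0.54 in KO replicate 1 and 0.08 in KO replicate 2, close to WT replicate 2.

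The difference was larger at wider gaps. The median log2 fold change was between -0.02 and 0.04 for sites with a neighbour within 25 kb, -0.15 at 50 to 75 kb, -0.30 at 75 to 100 kb, -0.53 at 100 to 150 kb, -0.52 at 150 to 250 kb, -0.98 at 250 to 500 kb and -1.06 at the 68 sites with at least 500 kb on both sides. At those 68 the median was -1.48 in KO replicate 1 and -0.38 in KO replicate 2 against the WT mean, and the WT lines lay 1.08 apart, wider than in any other band. The KO lines lay furthest apart at 250 to 500 kb, with a median of -1.13 for KO replicate 1 minus KO replicate 2. The share called lower went from 0.209% of sites with a neighbour within 1 kb to 3 of the 68 (4.41%).

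**Figure D2:**
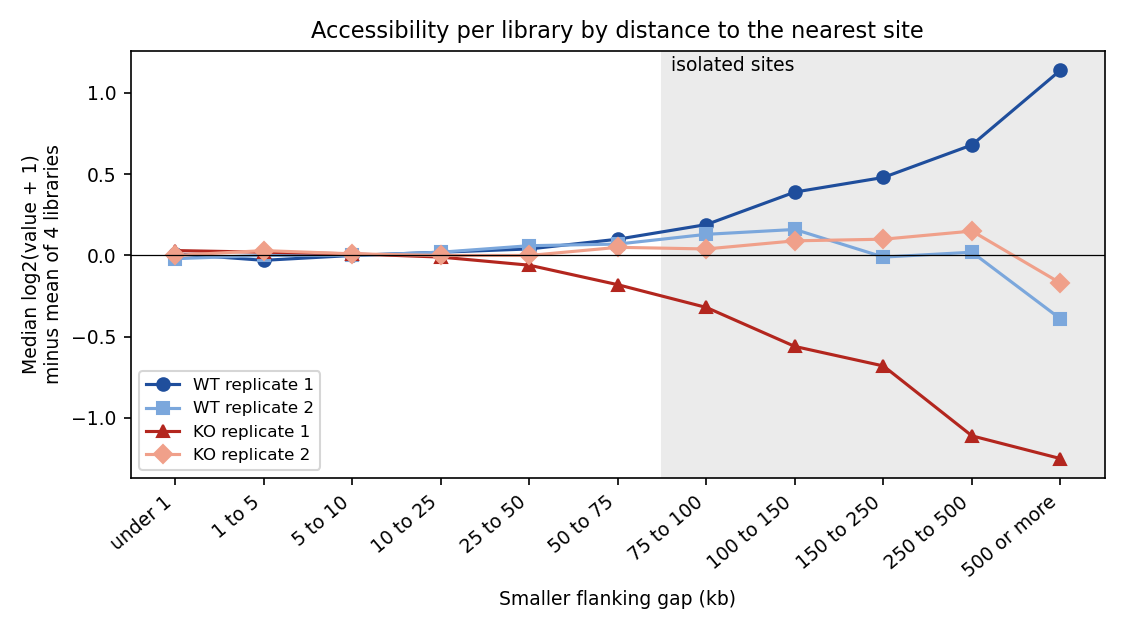
Median deviation of each library from the mean of the 4 libraries (log2 of value + 1, vertical axis) by the smaller flanking gap in kb (horizontal axis) for autosomal sites, with isolated sites on the shaded ground. WT replicate 1 moved up to 1.14 and KO replicate 1 down to -1.25 at 500 kb or more, while WT replicate 2 and KO replicate 2 stayed between -0.39 and 0.16.

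Level, GC content and gene density also move with isolation, so the fold changes were read within bands of each. At a mean of 5 to 10 normalized counts the median log2 fold change was -1.38 at isolated and -1.11 at other autosomal sites, so the weakest sites lay far below 0 in both sets, and at 10 to 20 it was -0.83 and -0.23. At 20 to 40 the median log2 fold change was -0.50 at isolated and -0.07 at other sites, at 40 to 80 it was -0.35 and -0.02, and at 160 or more it was 0.13 and 0.10. Of the 65 isolated sites in this highest band 83.1% were promoter sites and none was called. When the fit was limited to sites at or above the median level of all sites, 301 isolated sites were left with a median of -0.05 and 4 calls (beside 0.184% of the sites in that fit). In bands of GC content the isolated median was below that of the other sites in each of 6 bands, from 0.03 against 0.14 below 35% GC to -0.68 against 0.00 at 45 to 50%. With no protein-coding start within 1 Mb it was -0.84 against -0.05, and with 10 or more it was -0.26 against 0.01. KO replicate 1 lay further below WT than KO replicate 2 in each of the 6 level bands.

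**Figure D3:**
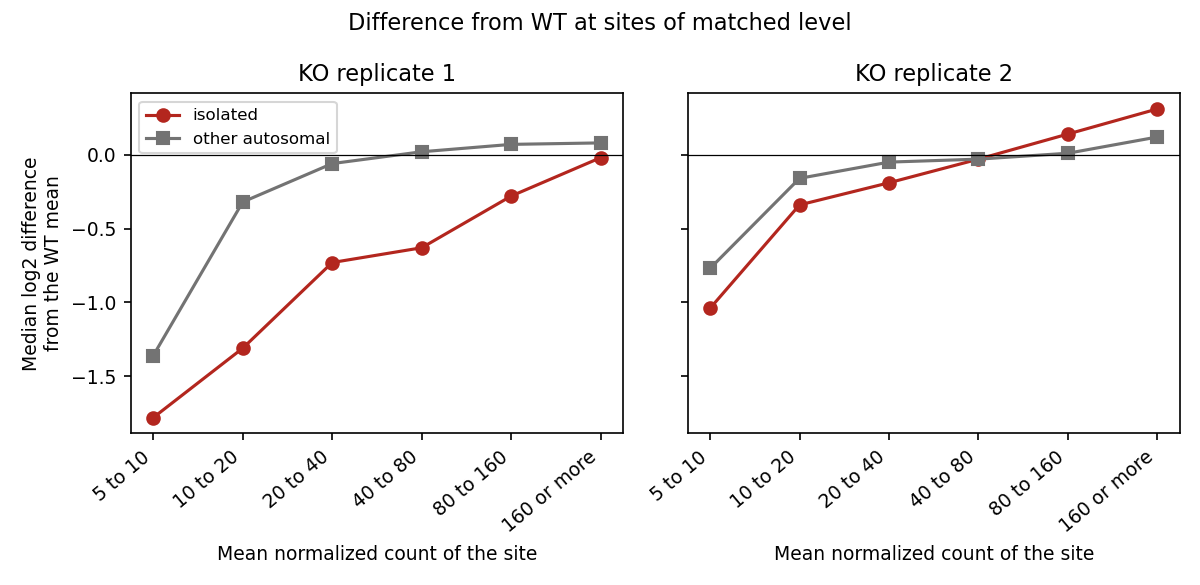
Median log2 difference from the WT mean (vertical axis) of KO replicate 1 and KO replicate 2 in bands of the mean normalized count (horizontal axis), for isolated and other autosomal sites. At 20 to 40 normalized counts the isolated median was -0.73 in KO replicate 1 and -0.19 in KO replicate 2.

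The 35 sites that fell shared low values in both KO lines. Their values ranged from 23 to 191 in WT replicate 1 and from 22 to 262 in WT replicate 2, but from 1 to 26 in KO replicate 1 and from 0 to 51 in KO replicate 2. Log2 fold changes ran from -4.79 to -1.56 with a median of -2.78, and limma unadjusted p-values from 0.000105 to 0.00972. KO replicate 1 was lower than KO replicate 2 at 23 of them and higher at 10, and the medians against the WT mean were -3.19 and -2.44, and at these sites, which the call chose for it, both lines were far below WT. At 11 of the 35 a KO value was under what 3 reads are worth (3.23 in KO replicate 1, 4.52 in KO replicate 2), and the size of these fold changes depends on the pseudocount. By position, 22 were intergenic, 9 were promoter sites and 4 intronic, and they were spread over 14 chromosomes. AP-1 letters were in 20 (57.1%) and TEAD letters in 13 (37.1%) of their windows, against 47.1% and 28.1% of all isolated sites. Their nearest sites on either side, 70 in all, had a log2 fold change below 0, the sign of the called sites, in 64 cases. The medians were -1.48 before and -1.71 after. Over all isolated sites 63.6% of 2792 such neighbours had the same sign, and the medians were -0.31 and -0.32. The falls were chosen in the same libraries, and neighbouring fold changes went together over all sites too.

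**Figure D4:**
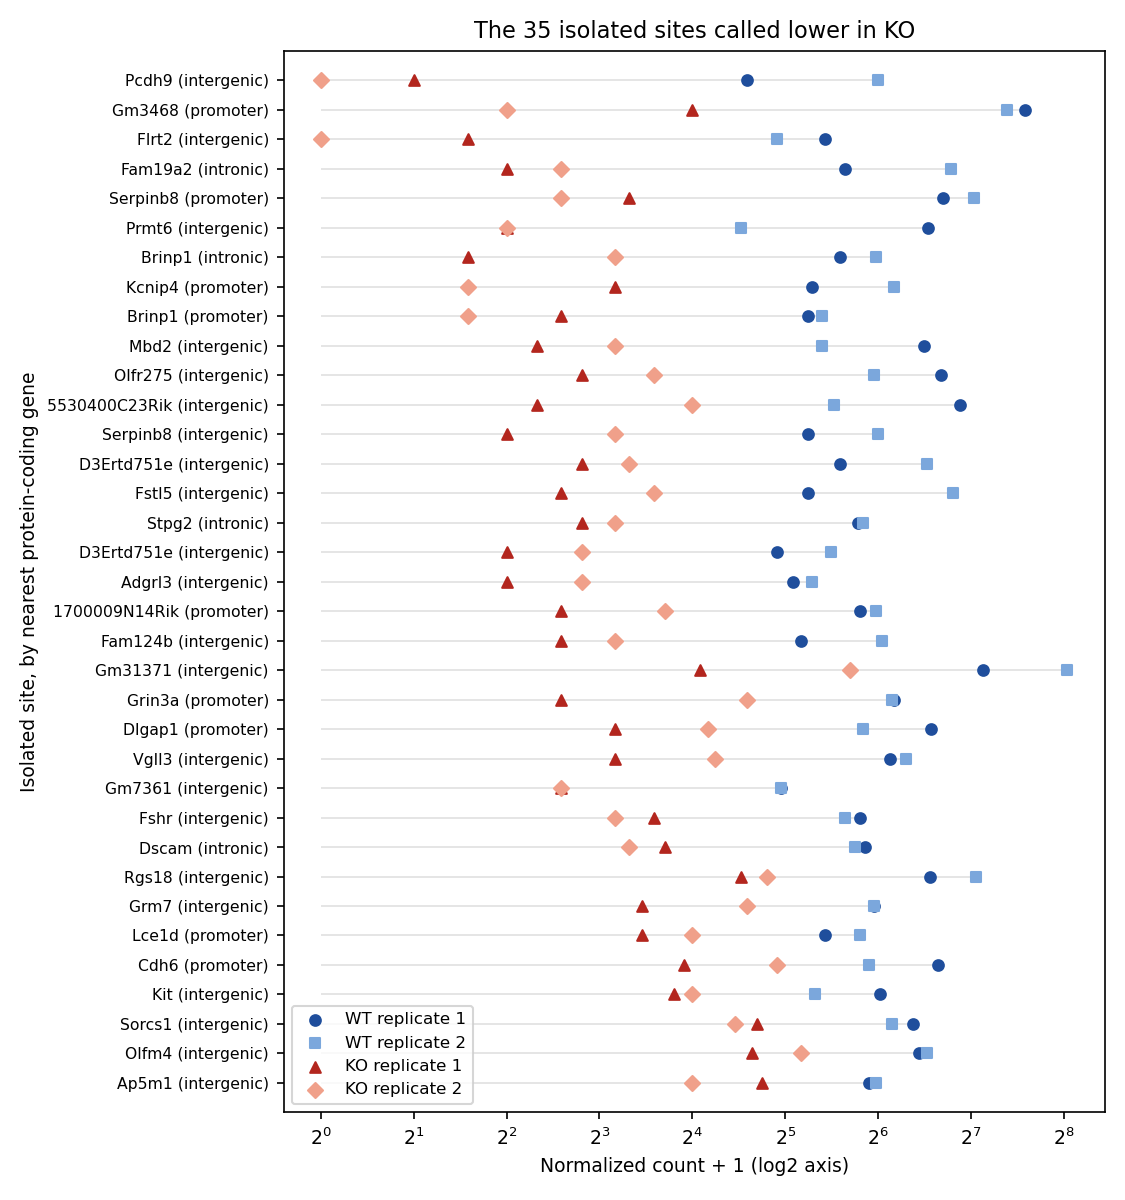
Normalized count + 1 (log2 horizontal axis) in each library at the 35 isolated sites called lower in KO (vertical axis, by nearest protein-coding gene and class), in order of log2 fold change. Both WT values lie above both KO values at each site, for which the call chose them, and KO values reach 0 at the Pcdh9 and Flrt2 sites.

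The largest falls among the better covered of these sites included 3 promoters. The Gm3468 promoter (chr14:6108123-6108989), a predicted gene, had 191 and 167 normalized counts in WT replicates 1 and 2 and 15 and 3 in KO replicates 1 and 2. Its log2 fold change was -4.49 (SE 0.67, limma unadjusted p = 0.000447), but 5 near-identical copies of the site exist in the genome and its reads cannot be assigned to 1 of them. The Serpinb8 promoter (chr1:107589795-107590336), of a gene for an intracellular serine protease inhibitor, had 103 and 130 in WT and 9 and 5 in KO. Here the groups were far apart and the lines of a genotype close together, with a log2 fold change of -3.91 (SE 0.45, limma unadjusted p = 0.000105), the smallest p of all isolated sites. A promoter of Kcnip4 (chr5:49524571-49525096), which encodes a partner of voltage-gated potassium channels, had 38 and 71 in WT and 8 and 2 in KO, a log2 fold change of -3.35 (SE 0.76, limma unadjusted p = 0.00403).

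The other 5 lay away from promoters. The site in the intron of Fam19a2 (chr10:123670402-123671108), a gene for a small secreted protein of the nervous system, had 49 and 109 in WT and 3 and 5 in KO. The WT lines differed there by 1.14 on the log2 scale, yet both lay well above KO, and the log2 fold change was -3.92 (SE 0.62, limma unadjusted p = 0.000633). The intronic site of Brinp1 (chr4:68865057-68865582), a neural gene that restrains the cell cycle, had 47 and 62 in WT and 2 and 8 in KO (log2 fold change -3.40, SE 0.72, limma unadjusted p = 0.00285). A second site nearest to Brinp1, 931 kb from its start, also fell. An intergenic site 470 kb from Prmt6 (chr3:110721277-110721910), an arginine methyltransferase gene, had 92 and 22 in WT and 3 in both KO lines. With such unequal WT lines its log2 fold change of -3.53 had an SE of 0.86 (limma unadjusted p = 0.00583), and both KO values were under what 3 reads are worth. A single KO value was also under that worth at the Gm3468, Kcnip4, Fam19a2 and intronic Brinp1 sites. The size of these fold changes thus depends on the pseudocount. An intergenic site 648 kb from Mbd2 (chr18:71215861-71216322), which encodes a methyl-CpG binding protein, had 89 and 41 in WT and 4 and 8 in KO (log2 fold change -3.20, SE 0.62, limma unadjusted p = 0.00193). The Olfr275 site (chr4:52797442-52797934), 27.5 kb from a gene of the odorant receptor family, had 101 and 61 in WT and 6 and 11 in KO (log2 fold change -3.12, SE 0.51, limma unadjusted p = 0.000741). The remaining 27 called sites included promoters of Grin3a, a glutamate receptor subunit, Dlgap1, a postsynaptic scaffold, and Cdh6, a cadherin, which were picked for mention after their values were seen. Grin3a had 71 and 70 in WT and 5 and 23 in KO, Dlgap1 had 94 and 56 against 8 and 17, and Cdh6 had 99 and 59 against 14 and 29.

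No isolated site rose by the call. Among the 13 higher at an unadjusted p under 0.05, an intergenic pair nearest to Bmp2, a morphogen gene, was singled out after its values were seen. One, 421 kb from the start, had 5 and 4 in WT and 29 and 24 in KO, and the other, 315 kb away, had 19 and 18 in WT and 86 and 39 in KO. The groups did not overlap at either, with log2 fold changes of 2.32 (SE 0.71) and 1.60 (SE 0.49) and limma unadjusted p-values of 0.0162 and 0.016. The Zfp951 promoter had 137 and 64 in WT and 281 and 203 in KO, a log2 fold change of 1.34 (SE 0.40, limma unadjusted p = 0.0143).

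By nearest gene, the isolated sites belonged to 990 genes, and several families of neural adhesion and signalling were frequent. Their calls are few and are to be read beside the 2.51% of all isolated sites, and 0.302% of all sites, called lower. Cadherins and protocadherins were nearest to 46 isolated sites (3.3%, against 0.383% of other autosomal sites), of which 2 fell and 0 rose, with a median log2 fold change of -1.09 (-1.91 in KO replicate 1, -0.15 in KO replicate 2). Glutamate receptors had 26 sites with 2 falls and a median of -1.06, teneurins and latrophilins 22 with 1 fall and -0.93, leucine-rich repeat adhesion genes of the SLITRK and FLRT kind 18 with 1 fall and -0.99, and potassium channels and their partners 29 with 1 fall and -0.47. Contactins (10 sites, median -1.23) had no call, and these medians stand beside -0.50 over all isolated sites. Serpins had 5 sites with 2 falls, both nearest to Serpinb8, and a median of -2.52. In the receptor gene clusters, 15 sites nearest to olfactory receptors had a median of 0.08 with 1 fall, and 10 nearest to vomeronasal receptors had -0.44 with none. Zinc finger genes (18 sites, -0.27) and homeobox and Sox genes (16 sites, -0.03) also had no call, nor did GABA receptors (5 sites, 0.43), cytochromes P450 (3 sites, -0.20), FGF genes (2 sites, -0.09) and BMP genes (3 sites, all Bmp2, 1.60).

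Pcdh9, a protocadherin gene with the most isolated sites, had 8, spread over its introns, its promoter and the flanking DNA, and all 8 had a log2 fold change below 0. Across them the values ran from 7 to 214 (median 38) in WT replicate 1, from 2 to 190 (median 29) in WT replicate 2, from 0 to 8 (median 3) in KO replicate 1 and from 0 to 256 (median 25) in KO replicate 2. KO replicate 1 was thus low at every site, while KO replicate 2 was high at some and low at others. Its promoter (chr14:93890455-93891302) had 214 and 190 in WT, 6 in KO replicate 1 and 256 in KO replicate 2. The KO line at 6 stood alone (limma unadjusted p = 0.18). An intergenic site 383 kb away fell in both, with 23 and 63 in WT against 1 and 0 in KO (log2 fold change -4.79, SE 1.20, limma unadjusted p = 0.0065).

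Other long genes with several isolated sites showed further line patterns. Robo1, the receptor of the Slit guidance proteins, had 5 sites with 20 to 85 and 14 to 69 in WT, 1 to 5 in KO replicate 1 and 3 to 38 in KO replicate 2. Tenm4, a teneurin gene, had 5 sites with 19 to 59 and 19 to 89 in WT and 4 to 14 and 8 to 35 in KO, and both KO values were under both WT values at all 5, although none was called. Flrt2 had 4 such sites of 5, with 1 call.

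Differences between lines of a genotype were common at isolated sites. An absolute log2 difference of at least 1 was found between the WT lines at 38.8% of them, against 13.1% of other autosomal sites, and between the KO lines at 53.2% against 20.2%. WT replicate 1 was the higher WT line at 26.1% and WT replicate 2 at 12.7%, and KO replicate 2 was the higher KO line at 41.3% and KO replicate 1 at 12%, all by that margin. A site was counted as low in a single line when it had 5 or less there and 20 or more in the 3 others. This was so for KO replicate 1 at 57 isolated sites (4.08%, against 0.34% of other autosomal sites) and for any other line at 4 or fewer. The reverse, 20 or more in a single line and 5 or less in the 3 others, was found for WT replicate 1 at 12, WT replicate 2 at 8, KO replicate 1 at 1 and KO replicate 2 at 7.

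The site of widest line difference lay 1064 kb from Csmd3 (chr15:46937016-46937903), beside a processed pseudogene. It had 104 in WT replicate 1, 2 in WT replicate 2, 1 in KO replicate 1 and 454 in KO replicate 2. One line of each genotype was thus high and the other low. Its log2 differences between lines were 5.13 in WT and -7.83 in KO (replicate 1 minus replicate 2), against a KO to WT log2 fold change of 0.77 (SE 2.68). A site 493 kb from 1700015G11Rik had 82 and 0 in WT and 12 and 21 in KO. A site 234 kb from Cts3, at the start of a microRNA gene and with 2 other copies in the genome, had 135 and 3 in WT and 73 and 63 in KO. A site 181 kb from Pudp had 26 and 56 in WT and 3 and 161 in KO. At the remote promoter of Pcdh17, a protocadherin gene with more than 1 Mb of listed gap on both sides, WT had 178 and 54 and KO had 20 and 220, so the genotypes overlapped. Near-identical copies were found for 54 isolated sites (3.87%), and 1, 201 kb from Epha5, matched the mitochondrial genome and had 13 and 7 in WT and 27 and 11 in KO.

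The pattern ran through most chromosomes. The median log2 fold change of isolated sites was below 0 on 18 of 19 autosomes, from -1.03 on chromosome 14 to 0.00 on chromosome 19. Over all sites of these chromosomes the medians were -0.18 and 0.23, also the lowest and highest of the autosomes. On the other autosomes the medians over all sites lay between -0.04 and 0.12, while those of isolated sites lay between -0.85 and -0.13. The median of KO replicate 1 against the WT mean was below 0 on 19 autosomes and that of KO replicate 2 on 15. Isolated sites were also set beside their neighbours. The sites on either side had medians of -0.31 and -0.32, and 523 isolated sites were followed by another isolated site. With each pair counted once, 62.9% of 2269 pairs with an isolated site had fold changes of the same sign, against 58.3% of the 78177 neighbouring autosomal pairs without one. Spearman's rho was 0.37 with the site before and 0.36 with the site after, against 0.26 over all neighbouring pairs, as a description of sites that share the same 4 libraries.

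**Figure D5:**
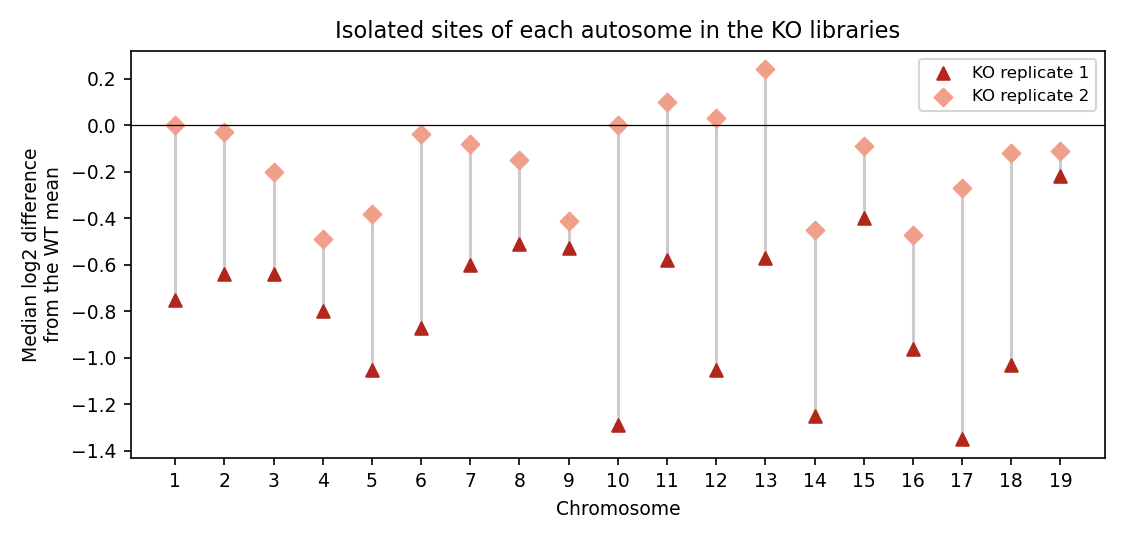
Median log2 difference from the WT mean (vertical axis) of the isolated sites of each autosome (horizontal axis) in KO replicate 1 and KO replicate 2, joined by a line. KO replicate 1 lies below 0 on all 19 and reaches -1.35 on chromosome 17, and KO replicate 2 lies between -0.49 and 0.24.

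Among the classes and motifs the fold changes differed little beside the spread between lines. Medians were -0.45 at promoter, -0.43 at intronic, -0.56 at intergenic and -0.82 at the 29 exonic isolated sites. Sites with and without AP-1 letters had medians of -0.59 and -0.42, with and without TEAD letters -0.62 and -0.47, with and without RUNX letters -0.81 and -0.45, and with and without CTCF letters -0.71 and -0.47. The order was the other way for NFY letters, with -0.16 at 67 sites against -0.50 without them, and 2 sites with NRF1 letters had -0.20. For RUNX the median was -1.23 in KO replicate 1 and -0.18 in the other KO line. The separation between the KO lines was larger than that between sites with and without the letters.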

How the data were processed

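ATAC-Seq values of 4 libraries (2 WT and 2 KO immortalized MEF lines, grouped by the genotype label and numbered in accession order) were taken from 1 deposited table of 82325 sites. Per the study methods and labels, the authors mapped read pairs with BWA 0.7.12 (mm10), found peaks with MACS2 2.1.0 and compared genotypes with DESeq2. The deposited values are a score: the authors scaled counts by a factor per library and rounded them, so no count model was used. Read filtering, multiply matching reads and the Tn5 offset are not given in the sources used here. The deposited table also holds log2 fold changes, shrunken and not, and p-values that the authors computed in their own comparison, and none was used. Columns of values without a sample numbered 0. The number of reads in sites was estimated from the spacing that scaling leaves between whole values, and whether reads or fragments were counted is not given.

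Sites were fitted with limma 3.58.1 (R 4.3.3, intensity trend) on log2(value + 1), with no filter and Benjamini-Hochberg adjustment over all sites. The fit was tested on simulated data. The log2(value + 1) scale understates changes of low sites. Each line is a single library, so p-values rest on the spread between lines, which limma draws toward a trend fitted over all sites. Most of these sites are not isolated, and at such sites lines of a genotype differed less often. Annotation came from GENCODE (GRCm38, the same assembly as mm10), and copies were sought with BLAST 2.17.0 (at least 95% identity over 90% of the site). Members, motifs and gene lists were chosen with earlier results of these data known. Named sites were the 8 largest falls and rises among called members at or above the median member level, the 6 highest per kb, the 4 with the widest gap, the 2 on either side of the threshold, the 3 highest per nonpromoter class, the 3 with the widest difference between lines of each genotype, and mitochondrial matches. The Zfp951 promoter, the second Brinp1 site, the Pcdh9 sites other than its promoter, and the Robo1, Tenm4 and Flrt2 sites lay outside this rule. Other exceptions are said to be so in the text. A few listed genes are not reported here. Python 3.11.15, numpy 2.4.6, pandas 2.3.3 and statsmodels 0.14.6 were used.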

Additional observations from a re-analysis of the deposited data

How the results depend on the processing

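The number of isolated sites called lower in KO (35) was 4 among sites at or above the median level of all sites, 65 with limma without an intensity trend and 0 at an adjusted p under 0.05. It ranged from 2 to 80 with 1 library left out. The number called higher (0) was 1 after quantile normalization, 1 without the trend, 1 with a gap of 50 kb, and ranged from 0 to 2 with 1 library left out. The median log2 fold change lay below 0 under each of its alternatives, from -0.81 without KO replicate 2 to -0.05 at the higher level. Of the 8 largest falls, 8 were called with a pseudocount of 8, at equal totals, after quantile normalization and without the trend, but only 2 without WT replicate 1, 1 without WT replicate 2, 4 without KO replicate 1 and 5 without KO replicate 2.

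The intergenic share was 48.2% with a gap of 50 kb, 55% with 100 kb and 54.9% with promoters limited to 1 kb, where the promoter share was 15.8%. AP-1 letters were in 41.2% of 200-base windows and in 51% of whole sites, as fewer or more bases were searched. Differences between the WT lines of at least 1 on the log2 scale were found at 31% with a gap of 50 kb, 45.7% with 100 kb, 26.8% with a pseudocount of 8 and 20.9% at the higher level, and between the KO lines at 45.5%, 58.5%, 35.5% and 36.5%. Where no construction is named, the cause was not tested. No paired analysis was possible because the labels give no replicate numbers, and only 1 WT and 1 KO line (WT replicate 1 and KO replicate 2) share a number in their names. Depth limits low values: 3 reads are worth 2.55, 2.14, 3.23 and 4.52 normalized counts in WT replicates 1 and 2 and KO replicates 1 and 2.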
